A study of Mus musculus with 12 samples.

Results

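The comparison described here is doxorubicin (DOX) against vehicle in wild-type mouse hearts. It uses the 3 libraries titled WT Dox and the 3 titled WT veh, which are 6 of the 12 libraries in the series, and every gene that passed a filter on low counts (14757 genes). The members were chosen by these titles alone. The titles number the samples 1, 2 and 3 (vehicle) and 21, 22 and 24 (DOX), and these are called mice here. The labels do not state that each is a separate animal. The p-values measure only the spread between samples within the 4 groups of the series. All 6 carried the PDE10A wild-type genotype on the C57BL/6J strain. For DOX the protocol gives a single intraperitoneal dose of 15 mg/kg and 7 days of treatment. The vehicle group is labelled with vehicle as its treatment. The protocol text covers the whole series, names male and female mice and gives no age. It also describes subcutaneous injections of TP-10, an inhibitor of PDE10A, or of its carrier (DMSO in β-cyclodextrin), begun before DOX and continued after it. No library label names TP-10, and which injections a given mouse received is not given in the sources used here. The other 6 libraries came from mice labelled PDE10A knockout (KO), with and without DOX, and entered the filter on low counts, the scaling, the estimate of the spread between animals and the test of whether the DOX effect differed.

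Doxorubicin is an anthracycline used against many cancers. It slides between the bases of DNA, traps topoisomerase II on cut DNA and is reduced in cells to semiquinone and alcohol forms that generate reactive oxygen and disturb iron handling. Heart muscle, which divides little and depends on its mitochondria, is the tissue in which its toxicity limits treatment. DNA damage in most tissues acts through p53, which switches on genes such as the cell cycle inhibitor p21 and, through p21, switches off the genes of cell division.

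The heart label was checked against marker genes. The summed level of 6 cardiomyocyte genes (Myh6, Tnnt2, Tnni3, Actc1, Ryr2 and Mb) lay between 43051 and 69944 CPM (counts scaled to a common library size) in the 6 libraries, and that of 3 hepatocyte genes (Alb, Apoa1 and Ttr) between 0.356 and 1.31 CPM. Library totals ranged from 23918499 to 32921876 counts. CPM values include TMM factors and compare a gene between libraries, not 1 gene with another. The Y-linked gene Ddx3y measured at least 24.6 CPM and Xist at most 0.115 CPM in every wild-type library, so the mice were of 1 sex by these genes. Mitochondrially encoded genes took 33.6%, 19.5% and 30.7% of the counts in vehicle mice 1, 2 and 3 and 30.3%, 25.6% and 24.4% in DOX mice 21, 22 and 24. Pde10a measured 3.38, 1 and 1.86 CPM in the vehicle hearts and 2.7, 2.08 and 1.79 CPM in the DOX hearts. It lay between 8.27 and 11.9 CPM in the libraries labelled KO, above every wild-type library, so whole-gene counts do not show a loss there and KO is used here only as the label.

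After DOX, 2743 of 14757 genes passed the test (18.6%; adjusted p below 0.05, the threshold used throughout, and "called" below). Of these 1386 were higher (9.39% of genes tested) and 1357 lower (9.2%). Counts given for gene lists below are to be read beside these shares. Most changes were small. The median size of a called change was 0.61 on the log2 scale, against 0.30 for all genes tested, and 474 called genes changed at least 2-fold (228 higher, 246 lower). The 3 DOX hearts lay wholly above the 3 vehicle hearts for 2475 genes (16.8%) and wholly below them for 2335 (15.8%), and 2499 of the called genes (91.1%) were among these. Scaling by library totals alone gave 1845 higher and 941 lower calls, a split of 66.2% higher against 50.5% with TMM factors, and moved the median of all genes to 0.05.

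The 6 hearts did not respond alike. On the first principal component of the wild-type libraries, which held 56.2% of the variance, the vehicle hearts lay at -9.28, -56 and -27.5 (mice 1, 2 and 3) and the DOX hearts at 7.51, 43.2 and 42.1 (mice 21, 22 and 24). Values for single libraries are given in this order throughout. DOX mouse 21 therefore lay nearest to vehicle, and vehicle mouse 2 farthest from DOX. Over the called genes, counted in the called direction, the median distance from the vehicle mean was 0.41 (log2) in DOX mouse 21, 0.69 in mouse 22 and 0.70 in mouse 24. Calls rested on the spread this left. Without DOX mouse 22 there were 101 higher and 84 lower calls, without DOX mouse 24 there were 104 and 79, without vehicle mouse 2 there were 247 and 266, and without vehicle mouse 3 there were 313 and 429. Without DOX mouse 21 there were 1925 and 1926, and without vehicle mouse 1 there were 2186 and 2002. With only the 6 wild-type libraries in the fit, 6 genes were higher and 14 lower at the same threshold, and 3919 of 14207 had an unadjusted p below 0.05. That fit has fewer libraries from which to estimate the spread. Why its count was lower was not tested. In all, 135 genes were called in each of the 12 fits that left out 1 library. Below, each set of genes is followed by how its calls fared in those 12 fits. The number that opens the titles of vehicle mouse 1 and of DOX mice 22 and 24 ends in a suffix, -1, whose meaning is not given. With that suffix as a covariate, 769 genes were higher and 826 lower.

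**Figure D1:**
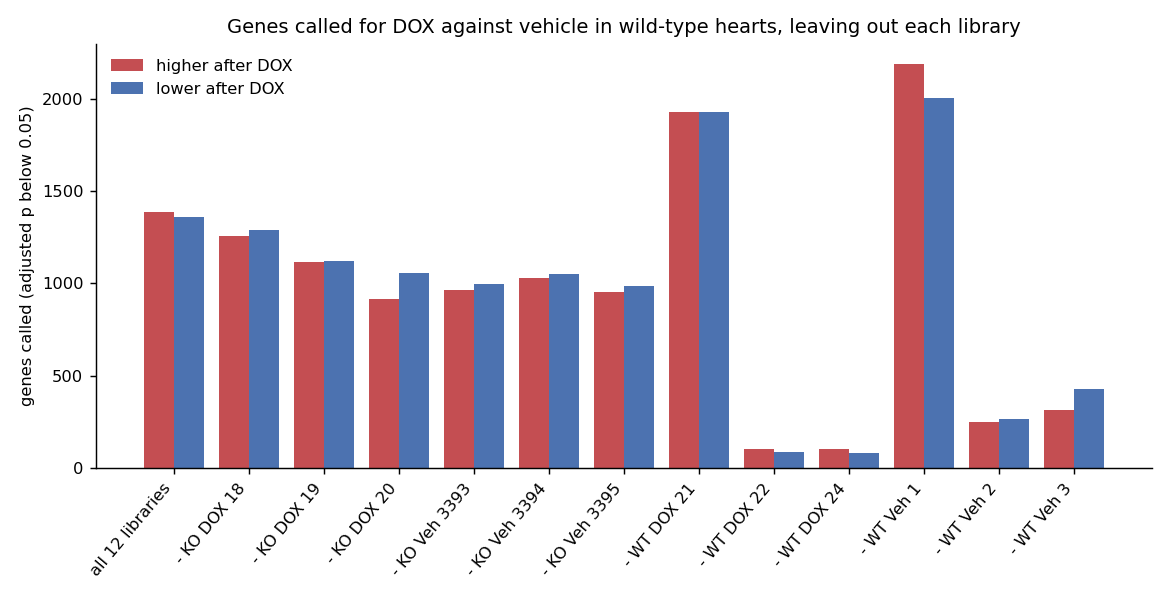
Number of genes called higher (red) or lower (blue) after DOX in wild-type hearts (y axis) in the fit of all 12 libraries and in the 12 fits that each left out the library named on the x axis. Calls fell from 1386 and 1357 to 101 and 84 without WT DOX mouse 22 and rose to 2186 and 2002 without WT vehicle mouse 1.

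The genes with the largest changes came from heart muscle, white blood cells, the red cell lineage and vessels. Myh7, the slow myosin heavy chain of the fetal mouse ventricle, measured 140, 70.5 and 84.4 CPM in vehicle hearts and 2531, 5062 and 8073 CPM after DOX. Every DOX heart was above every vehicle heart, with mouse 21 the lowest of the 3 (log2 fold change 5.73, SE 0.64, adjusted p = 0.00468). Chil3, a chitinase-like protein of myeloid cells, measured 0.089, 0 and 0.278 CPM in vehicle hearts and 1.15, 13.1 and 9.3 CPM after DOX (log2 fold change 6.00, SE 0.96, adjusted p = 0.00887). Its vehicle values rest on a handful of reads, and the fitted size is uncertain accordingly. Among the 15 highest were also Siglec1, a sialic acid receptor of macrophages (log2 fold change 2.25, SE 0.35, adjusted p = 0.00887), Hif3a, a hypoxia-inducible factor subunit that glucocorticoids induce (log2 fold change 2.23, SE 0.35, adjusted p = 0.00887), and Nr4a1, an orphan nuclear receptor induced by stress (log2 fold change 2.18, SE 0.37, adjusted p = 0.00941). Irs2, the insulin receptor substrate, went from 8.41, 14 and 11.4 CPM to 21.4, 161 and 45.2 CPM (log2 fold change 2.75, SE 0.55, adjusted p = 0.0147), and mouse 22 stood above the other DOX hearts. Hipk2, a kinase that phosphorylates p53, measured 14.9, 4.7 and 5.71 CPM against 21.4, 39.2 and 39.4 CPM (log2 fold change 2.00, SE 0.37, adjusted p = 0.0121). Apod (2.27), Spock2 (2.25) and Clca3a1 (2.19) were also among them, by their log2 fold changes.

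Among the 15 lowest, outside the red cell and antigen presentation genes treated below, were Sez6l2 and Cryba4. Sez6l2, a membrane protein known from neurons, measured 4.5, 4.35 and 4.72 CPM in vehicle hearts and 1.4, 0.947 and 0.72 CPM after DOX. The vehicle hearts lay close together and far above the DOX hearts (log2 fold change -2.15, SE 0.27, adjusted p = 0.00533). Cryba4, a lens crystallin gene, went from 3.29, 7.43 and 3.81 CPM to 1.19, 0.291 and 0.288 CPM (log2 fold change -3.06, SE 0.49, adjusted p = 0.00899). Myh7, Chil3, Siglec1, Hif3a, Nr4a1, Irs2, Sez6l2 and Cryba4 were called in all 12 fits that left out 1 library. Hipk2 lost the call without DOX mouse 22 or 24 (adjusted p up to 0.0527). Apod, Spock2 and Clca3a1 lost the call without DOX mouse 22 or 24 or vehicle mouse 2 or 3 (adjusted p up to 0.104).

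**Figure D2:**
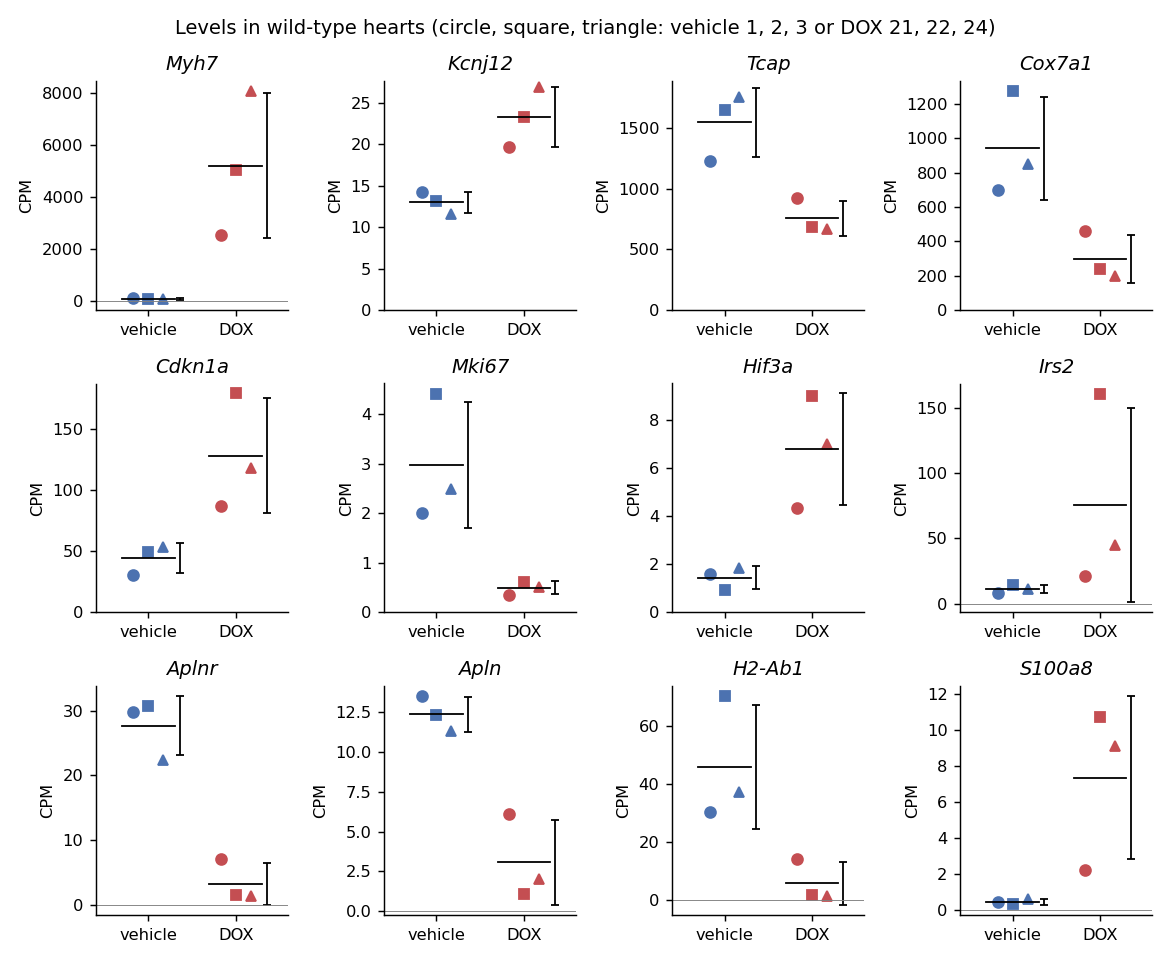
CPM (y axis, TMM-scaled) of 12 genes in each of the 6 wild-type libraries, vehicle in blue and DOX in red, with circles, squares and triangles for vehicle mice 1, 2 and 3 and DOX mice 21, 22 and 24; horizontal lines are group means and error bars are 1 SD (n = 3). The groups do not overlap for any of these 12 genes, and DOX mouse 21 is the DOX heart nearest to vehicle for all of them except Mki67.

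**Figure D3:**
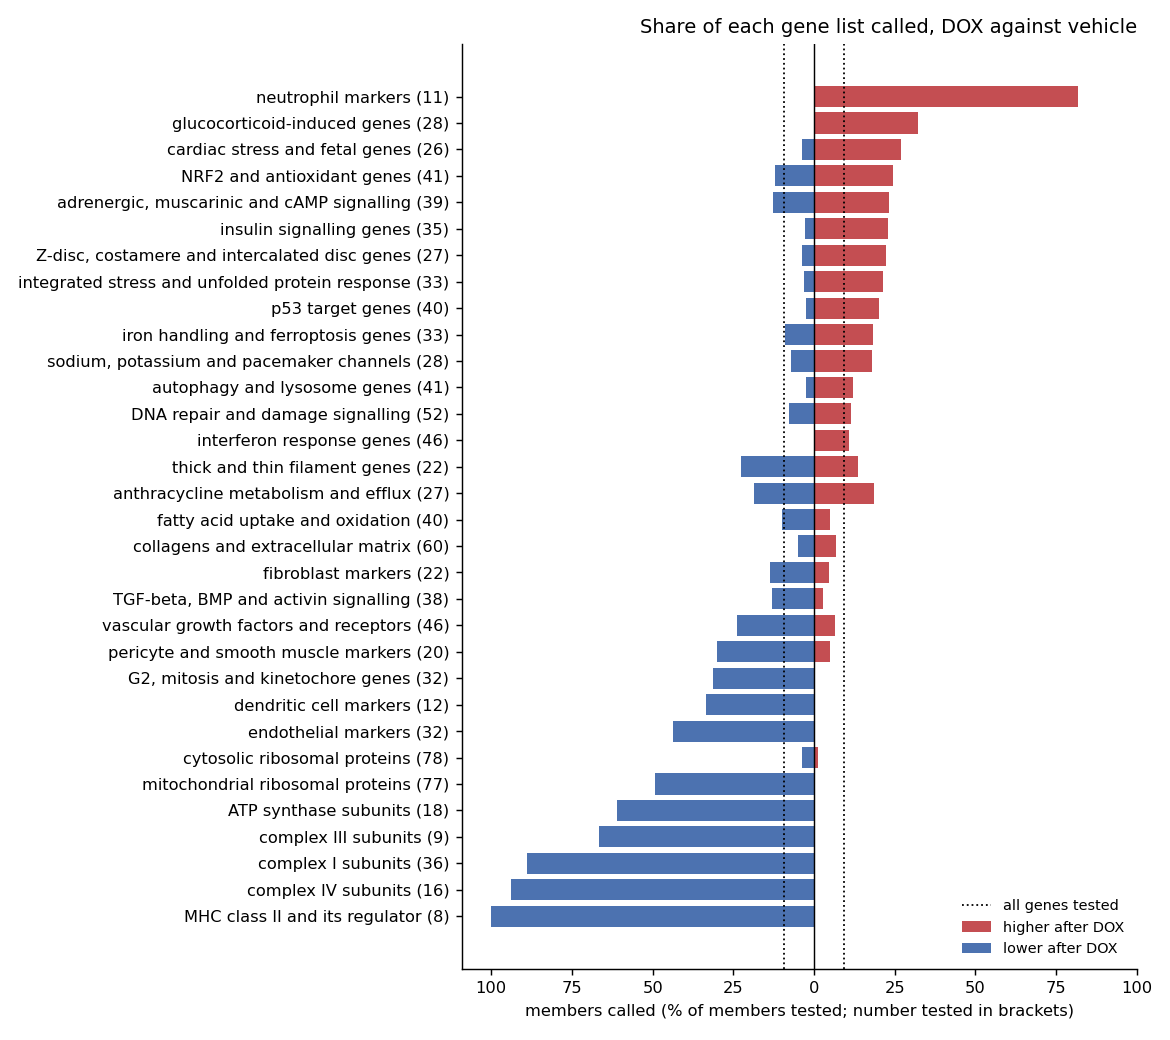
Share of each gene list called higher (red, to the right) or lower (blue, to the left) after DOX, as a percentage of the members tested (number in brackets); dotted lines mark 9.39% and 9.2%, the shares of all genes tested. Among the lists plotted, MHC class II genes and the subunits of complexes I, III and IV lie farthest to the left and neutrophil markers farthest to the right.

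Of the topoisomerases II on which DOX acts, the form made by dividing cells fell and the form made by non-dividing cells as well did not pass the test. Top2a, the topoisomerase II of proliferating cells, measured 0.935, 2.83 and 1.35 CPM in vehicle hearts and 0.359, 0.437 and 0.173 CPM after DOX. The groups did not overlap (log2 fold change -2.42, SE 0.51, adjusted p = 0.0165). Top2b, the form found in heart muscle, measured 64.2, 53.7 and 55.9 CPM against 62.1, 66.3 and 71.5 CPM. These ranges overlapped (log2 fold change 0.20, SE 0.09, adjusted p = 0.138), and with an offset for gene length and GC content the value was -0.11. Top1, which relaxes DNA by cutting a single strand, measured 43.2, 38.9 and 44.3 CPM against 56.6, 65.2 and 65.4 CPM, with every DOX heart above every vehicle heart (log2 fold change 0.57, SE 0.10, adjusted p = 0.0107). Of the 6 topoisomerase genes tested, Top1 was the only member called higher and Top2a the only one called lower in the fit of all 12 libraries.

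Several export pumps of drugs rose and several reductases of DOX fell. Among 27 tested genes of anthracycline metabolism and efflux, 5 were higher and 5 lower, with a median of -0.08. With Nqo1, a quinone reductase, the higher members included 3 transporters of the ABC family. Abcg2, the breast cancer resistance protein, measured 25.7, 20.4 and 26.3 CPM in vehicle hearts and 31.4, 35.8 and 37 CPM after DOX (log2 fold change 0.53, SE 0.11, adjusted p = 0.0165). Abcc1, the multidrug resistance protein 1, measured 29, 20.1 and 28.1 CPM against 36.1, 40.9 and 35 CPM (log2 fold change 0.54, SE 0.13, adjusted p = 0.0208), and the phospholipid flippase Abcb4 rose as well (log2 fold change 0.39, SE 0.10, adjusted p = 0.0215). Por, the P450 oxidoreductase that can transfer single electrons to quinones, was also higher (log2 fold change 0.51, SE 0.14, adjusted p = 0.0312). The 5 lower members were carbonyl and aldo-keto reductases, enzyme classes that include those that convert DOX to its alcohol doxorubicinol. Cbr1, the carbonyl reductase best known for this step, measured 25.1, 32.4 and 23.6 CPM in vehicle hearts and 18.7, 18.5 and 17.9 CPM after DOX (log2 fold change -0.56, SE 0.12, adjusted p = 0.017). Cbr3 (-0.91), Akr7a5 (-0.92) and Akr1c14 (-1.20) fell with it, as did Cbr4. The mitochondrial transporter gene Abcb8 measured 76.5, 85 and 75.5 CPM against 73.6, 71.2 and 77.3 CPM and did not pass (log2 fold change -0.09, SE 0.09, adjusted p = 0.486). The counts for this list were between 0 and 8 higher and between 0 and 5 lower when 1 of the 6 wild-type libraries was left out. Top1 was called in all 12 fits that left out 1 library. Abcg2, Abcc1, Cbr1 and Akr7a5 lost the call without DOX mouse 22 or 24 (adjusted p up to 0.0839). Top2a lost the call without DOX mouse 22 or 24 or vehicle mouse 2 (adjusted p up to 0.0669). Akr1c14 lost the call without DOX mouse 22 or 24 or vehicle mouse 3 (adjusted p up to 0.0849). Abcb4 lost the call without DOX mouse 24 or vehicle mouse 2 or 3 (adjusted p up to 0.0852). Por lost the call without DOX mouse 22 or 24 or vehicle mouse 2 or 3 (adjusted p up to 0.123). Cbr3 was called in only 7 of the 12 such fits (adjusted p up to 0.131).

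The p53 target list had 8 of 40 tested members higher and 1 lower, with a median of 0.26 against -0.00 for all genes. Cdkn1a, which encodes p21, measured 30.5, 49.3 and 53.6 CPM in vehicle hearts and 87.4, 180 and 118 CPM after DOX. All DOX hearts were above all vehicle hearts (log2 fold change 1.53, SE 0.31, adjusted p = 0.0155). Eda2r, a death-domain receptor of the ectodysplasin family and a p53 target, measured 2.09, 2.35 and 2.26 CPM against 5.75, 4.81 and 4.55 CPM, with tight groups (log2 fold change 1.17, SE 0.20, adjusted p = 0.00941). Trp53inp1, a p53-induced nuclear protein, measured 13.2, 12.1 and 10.4 CPM against 30.8, 74.6 and 23.5 CPM (log2 fold change 1.85, SE 0.36, adjusted p = 0.0138), and Perp, a desmosomal and apoptotic effector, 137, 150 and 135 CPM against 179, 200 and 277 CPM (log2 fold change 0.64, SE 0.14, adjusted p = 0.0174). Other well known targets did not pass. Mdm2, the ligase that degrades p53, measured 48.1, 41.8 and 46.1 CPM against 50.4, 52.8 and 55.2 CPM (log2 fold change 0.22, SE 0.08, adjusted p = 0.0844), and Trp53 itself measured 14.6, 14.4 and 14.5 CPM against 13, 10.6 and 12.4 CPM (log2 fold change -0.27, SE 0.11, adjusted p = 0.0871). Both sets of libraries were apart, upward for Mdm2 and downward for Trp53, without reaching the threshold. The number of higher p53 targets was between 2 and 12 when 1 wild-type library was left out. Eda2r and Trp53inp1 were called in all 12 fits that left out 1 library. Cdkn1a lost the call without DOX mouse 22 or 24 (adjusted p up to 0.0636). Perp lost the call without DOX mouse 22 or 24 or vehicle mouse 3 (adjusted p up to 0.0612).

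The Cdkn1a promoter is shown because it alone, among the 32 tested p53 targets with a window in the RefSeq promoter table (GRCm38.p6, 250 bases before to 50 bases after an annotated start), held a match to the p53 response element. The motif searched was 2 p53 decamers with at most 13 bases between them. Such a match was present in 24 of 32851 windows (0.0731%) and in 1 of the 47 windows of these targets (2.13%). Capitals mark the match, with any bases between its decamers. The stretch lies upstream of the start, at chr17:29090900-29090943 (plus strand).
Cdkn1a: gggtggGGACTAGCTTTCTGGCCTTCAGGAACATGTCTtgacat

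DNA repair genes were called about as often as all genes tested. Of 52 tested, 6 were higher (11.5%, beside 9.39% of all genes) and 4 lower (7.69%, beside 9.2%), and the median was 0.12. Prkdc, the catalytic subunit of DNA-dependent protein kinase in end joining, measured 8.73, 7.74 and 8.97 CPM in vehicle hearts and 11.8, 15.7 and 13.6 CPM after DOX, without overlap (log2 fold change 0.69, SE 0.12, adjusted p = 0.0102). Mre11a, a nuclease that senses double-strand breaks, measured 7.93, 7.08 and 7.3 CPM against 9.35, 9.83 and 9.93 CPM (log2 fold change 0.39, SE 0.10, adjusted p = 0.0236). Atm, the kinase that signals such breaks to p53, measured 5.08, 1.62 and 2.74 CPM against 5, 6.23 and 7.4 CPM (log2 fold change 1.00, SE 0.30, adjusted p = 0.0396). Vehicle mouse 1 overlapped DOX mouse 21 for Atm. With the length and GC offset 0 of the 52 were called higher and 2 lower. Prkdc was called in all 12 fits that left out 1 library. Mre11a lost the call without DOX mouse 22 or 24 or vehicle mouse 2 or 3 (adjusted p up to 0.0803). Atm was called in only 3 of the 12 such fits (adjusted p up to 0.137).

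Several genes of cell division fell. Of 48 genes of G2, mitosis and the kinetochore 32 passed the filter on low counts, and of these 10 were lower and 0 higher, and 29 had a fold change below 0 (median -0.82). The test was edgeR's quasi-likelihood F test, as throughout. Mki67, the proliferation marker Ki-67, measured 2, 4.42 and 2.5 CPM in vehicle hearts and 0.359, 0.619 and 0.518 CPM after DOX. The highest DOX value was well below the lowest vehicle value, and vehicle mouse 2 was the highest of all (log2 fold change -2.57, SE 0.38, adjusted p = 0.00887). Cdk1, the kinase that drives mitosis, measured 0.445, 1.66 and 0.516 CPM against 0.108, 0.146 and 0.259 CPM (log2 fold change -2.31, SE 0.55, adjusted p = 0.021). Ccna2, the cyclin of S phase and G2, measured 0.668, 1.87 and 0.913 CPM against 0.216, 0.4 and 0.317 CPM (log2 fold change -1.89, SE 0.46, adjusted p = 0.0224). All of these were scarce transcripts in hearts of either group. When a gene had to reach 1 CPM in 3 or more libraries, 10 of the 48 were tested, 4 of them were lower and the median was -0.29, and without vehicle mouse 2 the median of the 32 was -0.40 with 1 lower. A scarce gene passes the filter through the group where it is higher, so the count and the median are descriptions. Of 31 tested genes of replication licensing and S phase, 3 were lower and 0 higher (median -0.30). The lower share, 9.68%, was close to the 9.2% of all genes. The 3 lower genes were E2f1, a transcription factor of S phase entry (log2 fold change -1.61, SE 0.48, adjusted p = 0.0386), Tk1, thymidine kinase (log2 fold change -1.23, SE 0.37, adjusted p = 0.0401), and Mcm6, a subunit of the replicative helicase (log2 fold change -0.45, SE 0.14, adjusted p = 0.0467). Without 1 of the wild-type libraries, between 1 and 11 of the 32 mitotic genes and between 0 and 4 of the 31 S phase genes were lower. Mki67 was called in all 12 fits that left out 1 library. Cdk1 and Ccna2 lost the call without DOX mouse 22 or 24 or vehicle mouse 2 (adjusted p up to 0.0962). E2f1, Tk1 and Mcm6 were called in only 4 to 6 of the 12 such fits (adjusted p up to 0.2).

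Promoters of mitotic genes are known for pairs of elements through which p53 and p21 silence them, a CCAAT box and the cell cycle homology region (TTTGAA or TTCGAA). Promoter stretches of 4 called genes are shown because each carries both elements upstream of its start. Of the 29 windows of the 28 mitotic genes found in the table, 21 (72.4%) held both motifs on either strand, against 2472 of all 32851 windows (7.52%). CCAAT, with or without the other motif, was in 79.3% of their windows against 37.4% of all, and the cell cycle homology region in 75.9% against 19.2%. Among the S phase genes the homology region was in 17.2% of windows. Capitals mark both motifs, and ATTGG and TTCAAA are CCAAT and TTTGAA on the other strand. The stretches lie at chr7:80294410-80294455 (plus strand) for Prc1, a midzone protein that cross-links spindle microtubules, and, on the minus strand, at chr7:135716468-135716571, chr10:69352918-69353124 and chr11:99024203-99024420 for Mki67, Cdk1 and Top2a.
Prc1: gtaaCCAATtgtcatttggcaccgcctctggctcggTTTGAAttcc
Mki67: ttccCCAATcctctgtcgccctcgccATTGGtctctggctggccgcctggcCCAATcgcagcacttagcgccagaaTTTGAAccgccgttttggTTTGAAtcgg
Cdk1: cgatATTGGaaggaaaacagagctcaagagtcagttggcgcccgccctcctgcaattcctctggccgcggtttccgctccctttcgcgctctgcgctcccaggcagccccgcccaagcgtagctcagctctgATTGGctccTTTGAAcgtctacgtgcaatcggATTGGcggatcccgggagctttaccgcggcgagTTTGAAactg
Top2a: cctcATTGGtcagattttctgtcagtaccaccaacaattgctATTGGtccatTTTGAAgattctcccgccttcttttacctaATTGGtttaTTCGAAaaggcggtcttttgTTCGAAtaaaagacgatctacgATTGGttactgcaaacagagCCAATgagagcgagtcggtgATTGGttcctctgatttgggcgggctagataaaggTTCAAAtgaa

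Several heart muscle genes of mechanical stress rose with Myh7. Of 26 tested stress and fetal genes, 7 were higher and 1 lower (median 0.30). Ankrd1, an ankyrin repeat protein of the stretched sarcomere, measured 491, 616 and 562 CPM in vehicle hearts and 677, 2238 and 1971 CPM after DOX. DOX mouse 21 lay just above the vehicle hearts and the other DOX hearts far above them (log2 fold change 1.55, SE 0.37, adjusted p = 0.0204). Xirp1, an actin-binding protein of the intercalated disc, measured 191, 217 and 258 CPM against 234, 511 and 627 CPM, with mouse 21 inside the vehicle range (log2 fold change 1.04, SE 0.26, adjusted p = 0.024). Hspb7, a small heat shock protein of heart muscle, measured 2109, 1637 and 2187 CPM against 2466, 3319 and 3720 CPM (log2 fold change 0.68, SE 0.17, adjusted p = 0.0226). Nppa, Nppb and Acta1, other markers of this program, did not pass. The atrial natriuretic peptide gene Nppa measured 93.7, 43.9 and 29.6 CPM in vehicle hearts and 60.2, 142 and 196 CPM after DOX, with overlap (log2 fold change 1.26, SE 0.82, adjusted p = 0.283). Nppb, the B-type peptide, measured 54.6, 119 and 157 CPM against 144, 154 and 154 CPM (log2 fold change 0.45, SE 0.37, adjusted p = 0.403). Skeletal actin, Acta1, measured 219, 207 and 114 CPM against 46.5, 34.7 and 114 CPM (log2 fold change -1.46, SE 0.69, adjusted p = 0.146). Myh6, the adult myosin heavy chain, measured 21810, 21473 and 20245 CPM against 19500, 18524 and 18518 CPM. All 3 DOX hearts were below the vehicle hearts for Myh6, by a margin that did not pass (log2 fold change -0.17, SE 0.11, adjusted p = 0.282). Between 1 and 10 stress genes were higher when 1 wild-type library was left out.

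The thick and thin filament genes had a list median of 0.02 but were called in both directions. Of 22 tested, 3 were higher (13.6%) and 5 lower (22.7%), beside 9.39% and 9.2% of all genes. Several abundant genes of the filaments and the Z-disc fell. Tcap, telethonin, which anchors titin at the Z-disc, measured 1230, 1656 and 1762 CPM in vehicle hearts and 924, 682 and 666 CPM after DOX. The groups were apart (log2 fold change -1.03, SE 0.17, adjusted p = 0.0093). Tnni3, cardiac troponin I, measured 5082, 8953 and 6393 CPM against 4551, 3050 and 3445 CPM (log2 fold change -0.89, SE 0.19, adjusted p = 0.0168). Tpm1, tropomyosin, measured 10000, 13305 and 10903 CPM against 8361, 6462 and 7398 CPM (log2 fold change -0.62, SE 0.14, adjusted p = 0.0172), and Myl3, the essential light chain of the ventricle, 5584, 7939 and 6126 CPM against 4851, 2839 and 3537 CPM (log2 fold change -0.81, SE 0.19, adjusted p = 0.0188). Vehicle mouse 2 was the highest library for Tnni3, Tpm1 and Myl3. The cardiac actin gene Actc1 measured 8665, 9740 and 8453 CPM against 6930, 4504 and 6711 CPM and stayed short of the threshold (log2 fold change -0.57, SE 0.19, adjusted p = 0.0561). Tcap was called in all 12 fits that left out 1 library. Hspb7, Tnni3, Tpm1 and Myl3 lost the call without DOX mouse 22 or 24 or vehicle mouse 2 (adjusted p up to 0.0906). Ankrd1 and Xirp1 lost the call without DOX mouse 22 or 24 or vehicle mouse 2 or 3 (adjusted p up to 0.0978).

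Several genes of the junctions between myocytes were higher. Of 27 tested genes of the Z-disc, costamere and intercalated disc, 6 were higher and 1 lower (median 0.18). Cdh2, N-cadherin, which joins myocytes end to end, measured 151, 81.2 and 100 CPM in vehicle hearts and 204, 283 and 208 CPM after DOX, without overlap (log2 fold change 1.06, SE 0.20, adjusted p = 0.0128). Dsp, desmoplakin of the desmosome, measured 1010, 684 and 801 CPM against 1133, 1355 and 1375 CPM (log2 fold change 0.63, SE 0.16, adjusted p = 0.0228). Vcl, vinculin of the costamere, measured 126, 85.6 and 121 CPM against 141, 164 and 161 CPM (log2 fold change 0.48, SE 0.13, adjusted p = 0.0286), and Pdlim5, a Z-disc scaffold, 547, 447 and 507 CPM against 585, 768 and 739 CPM (log2 fold change 0.48, SE 0.12, adjusted p = 0.0239). Most of these values shrank with the length and GC offset, under which 1 member of the list was called higher and 0 lower by edgeR's quasi-likelihood test. Cdh2 (0.95, adjusted p = 0.0149) was that member.

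Channels of the cardiac action potential were called in both directions. Of 28 tested sodium, potassium and pacemaker channel and pump genes, 5 were higher and 2 lower (median 0.04). Kcnj12, an inward rectifier that sets the resting potential, measured 14.2, 13.2 and 11.6 CPM against 19.7, 23.3 and 26.9 CPM, with tight groups (log2 fold change 0.84, SE 0.12, adjusted p = 0.00887). Kcnj5, a subunit of the acetylcholine-activated potassium channel, measured 54.3, 48.9 and 51.9 CPM against 72.8, 88.1 and 80.8 CPM (log2 fold change 0.64, SE 0.17, adjusted p = 0.027). Of 28 calcium handling genes, 1 was higher (3.57%) and 2 lower (7.14%), beside 9.39% and 9.2% of all genes (median -0.04). The lower ones were Hrc, the histidine-rich calcium binding protein of the sarcoplasmic reticulum (log2 fold change -0.58, SE 0.15, adjusted p = 0.0268), and S100a1, a calcium sensor of myocytes (log2 fold change -0.53, SE 0.16, adjusted p = 0.0433). The sarcoplasmic calcium pump gene Atp2a2 (log2 fold change 0.19, SE 0.16, adjusted p = 0.396), the ryanodine receptor gene Ryr2 (log2 fold change 0.39, SE 0.16, adjusted p = 0.108) and the phospholamban gene Pln (log2 fold change 0.14, SE 0.12, adjusted p = 0.43) did not pass, and their groups overlapped. Kcnj12 was called in all 12 fits that left out 1 library. Cdh2 lost the call without DOX mouse 22 (adjusted p up to 0.0569). Dsp, Vcl, Pdlim5, Kcnj5 and Hrc lost the call without DOX mouse 22 or 24 or vehicle mouse 2 or 3 (adjusted p up to 0.105). S100a1 was called in only 3 of the 12 such fits (adjusted p up to 0.167).

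Because the series is about a phosphodiesterase, the genes that make, sense and break down cAMP were followed. In heart muscle, β-adrenergic receptors and adenylyl cyclases raise cAMP, muscarinic receptors lower it, protein kinase A acts on it and phosphodiesterases destroy it. Of 39 tested genes of adrenergic, muscarinic and cAMP signalling, 9 were higher (23.1%) and 5 lower (12.8%), beside 9.39% and 9.2% of all genes (median 0.08). The lower ones included a β-adrenergic receptor gene, Adrb1, and an adenylyl cyclase gene, Adcy4. Between 0 and 11 members were higher and between 1 and 7 lower when 1 wild-type library was left out. Adcy9, an adenylyl cyclase, measured 9.62, 2.52 and 4.96 CPM in vehicle hearts and 15.9, 20.9 and 20.2 CPM after DOX, without overlap (log2 fold change 1.76, SE 0.33, adjusted p = 0.0128). Chrm2, the muscarinic receptor of the heart, measured 74.9, 49.1 and 52.9 CPM against 89.9, 132 and 101 CPM (log2 fold change 0.87, SE 0.20, adjusted p = 0.0195). Prkar1a, a regulatory subunit of protein kinase A, measured 441, 388 and 365 CPM against 548, 540 and 568 CPM (log2 fold change 0.47, SE 0.10, adjusted p = 0.0168). Popdc2, a cAMP-binding membrane protein of myocytes, showed very little spread, with 405, 396 and 410 CPM against 534, 535 and 530 CPM (log2 fold change 0.40, SE 0.09, adjusted p = 0.0174). Of 19 tested phosphodiesterase genes, Pde4d, a cAMP-specific enzyme of the calcium release complex, was called, with 10.9, 7.74 and 7.74 CPM in vehicle hearts and 12.8, 18.9 and 15.7 CPM after DOX (log2 fold change 0.85, SE 0.16, adjusted p = 0.0134). Pde10a did not pass (log2 fold change 0.09, SE 0.33, adjusted p = 0.872). Without 1 wild-type library, between 0 and 5 phosphodiesterase genes were higher.

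Hormone systems of the circulation were called in a few members. Of 15 tested genes of natriuretic peptide and cGMP signalling, 2 were higher (13.3%) and 1, Npr1, was lower (6.67%), beside 9.39% and 9.2% of all genes (median 0.20). The higher ones were Corin, the protease that activates natriuretic peptides (209, 176 and 181 CPM against 210, 447 and 327 CPM, log2 fold change 0.80, SE 0.21, adjusted p = 0.0274), and Prkg1, the cGMP-dependent kinase (9.62, 7.12 and 8.29 CPM against 9.45, 14.5 and 15.8 CPM, log2 fold change 0.67, SE 0.19, adjusted p = 0.0332). Without 1 wild-type library, between 0 and 3 members of this list were higher and between 0 and 2 lower. Of 9 tested genes of the renin-angiotensin and aldosterone system, 3 were higher and 0 lower (median 0.07). They were the angiotensin receptor gene Agtr1a (34.4, 22.1 and 27.7 CPM against 38.4, 40.8 and 43.3 CPM, log2 fold change 0.54, SE 0.13, adjusted p = 0.0224), the mineralocorticoid receptor gene Nr3c2 (log2 fold change 0.66, SE 0.20, adjusted p = 0.0404) and the angiotensinogen gene Agt (log2 fold change 1.23, SE 0.39, adjusted p = 0.0447). Agt in DOX mouse 22, at 22.5 CPM, stood far above all other libraries. Adcy9 and Pde4d lost the call without DOX mouse 22 or 24 (adjusted p up to 0.0572). Prkar1a and Popdc2 lost the call without DOX mouse 22 or 24 or vehicle mouse 3 (adjusted p up to 0.0651). Chrm2, Corin, Prkg1 and Agtr1a lost the call without DOX mouse 22 or 24 or vehicle mouse 2 or 3 (adjusted p up to 0.13). Nr3c2 and Agt were called in only 1 to 3 of the 12 such fits (adjusted p up to 0.182).

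Nuclear genes of the respiratory chain fell together. The chain passes electrons from complexes I and II through III to IV, and ATP synthase uses the resulting gradient. Of 36 tested complex I subunits, 32 were lower and 0 higher (median -0.61); of 9 complex III subunits, 6 and 0 (-0.54); of 16 complex IV subunits, 15 and 0 (-0.62); and of 18 ATP synthase subunits, 11 and 0 (-0.56). Of the 4 subunits of complex II, only Sdhb, its iron-sulfur subunit, was called (log2 fold change -0.61, SE 0.13, adjusted p = 0.0165; list median -0.17). In every one of these lists vehicle mouse 2 was the highest library. For complex I the median distance from the vehicle mean was -0.28, 0.36 and -0.08 in vehicle mice 1, 2 and 3 and -0.38, -0.68 and -0.72 in DOX mice 21, 22 and 24, so DOX mouse 21 lay little below vehicle mouse 1. The counts depended on single hearts. Without DOX mouse 22 or DOX mouse 24, 0 of the 36 complex I subunits were called by edgeR's quasi-likelihood test (34 and 32 had an unadjusted p below 0.05), without vehicle mouse 2 there were 8, and without vehicle mouse 1 there were 34.

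The size of the fall depended also on a correction for gene length and GC content. With an offset fitted to each library for these properties, the medians were -0.34 for complex I, -0.30 for complex III, -0.31 for complex IV and -0.24 for ATP synthase, the lower calls were 17, 3, 6 and 4, and 1 ATP synthase subunit was called higher. All 4 medians kept their sign. Among single subunits, Cox7a1, the heart and muscle form of a complex IV subunit, measured 699, 1277 and 848 CPM in vehicle hearts and 459, 236 and 198 CPM after DOX. The groups were well apart (log2 fold change -1.66, SE 0.29, adjusted p = 0.01), and the value was -1.27 with the offset (adjusted p = 0.0113). Ndufv3, of the flavoprotein part of complex I, measured 276, 507 and 340 CPM against 219, 170 and 139 CPM (log2 fold change -1.09, SE 0.21, adjusted p = 0.0129). Ndufa13, an accessory subunit of complex I, measured 458, 762 and 566 CPM against 382, 318 and 287 CPM (log2 fold change -0.85, SE 0.16, adjusted p = 0.0129). Uqcr11, a small subunit of complex III, measured 356, 664 and 446 CPM against 273, 222 and 197 CPM (log2 fold change -1.08, SE 0.19, adjusted p = 0.0107), and Uqcrc1, a core subunit, 1218, 1636 and 1292 CPM against 969, 778 and 864 CPM (log2 fold change -0.67, SE 0.13, adjusted p = 0.0139). Atp5k, of the membrane part of ATP synthase, measured 331, 626 and 403 CPM against 283, 221 and 198 CPM (log2 fold change -0.95, SE 0.20, adjusted p = 0.0161). Cox7a1 lost the call without DOX mouse 22 (adjusted p up to 0.0513). Ndufv3, Ndufa13, Uqcr11, Uqcrc1 and Atp5k lost the call without DOX mouse 22 or 24 (adjusted p up to 0.066). Sdhb lost the call without DOX mouse 22 or 24 or vehicle mouse 2 (adjusted p up to 0.0695).

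Several chain and energy genes exist in a form used by heart and muscle and a form used by most tissues, and the muscle forms had the lower median. Of 8 pairs, 7 of 8 muscle forms were lower (median -0.72), against 2 of 7 tested ubiquitous forms (median -0.19). Cox8b, the muscle form, measured 405, 767 and 497 CPM in vehicle hearts and 349, 234 and 225 CPM after DOX (log2 fold change -1.05, SE 0.22, adjusted p = 0.0165), and its ubiquitous partner Cox8a 74.8, 126 and 102 CPM against 77.6, 65.8 and 68.3 CPM (log2 fold change -0.52, SE 0.15, adjusted p = 0.0358). Cox6a2 measured 1535, 2291 and 1866 CPM against 1404, 1099 and 1104 CPM (log2 fold change -0.66, SE 0.15, adjusted p = 0.0174), and its partner Cox6a1 51.6, 92.2 and 72.1 CPM against 58.7, 49.1 and 59.6 CPM, with overlap (log2 fold change -0.37, SE 0.17, adjusted p = 0.139). The partner of Cox7a1, Cox7a2, measured 330, 572 and 440 CPM against 369, 286 and 275 CPM (log2 fold change -0.53, SE 0.17, adjusted p = 0.0488). Among the enzymes, the muscle enolase gene Eno3 fell (log2 fold change -0.92, SE 0.26, adjusted p = 0.0341) while the value for Eno1 was 0.17 (adjusted p = 0.253), and the muscle phosphoglycerate mutase gene Pgam2 fell (log2 fold change -0.78, SE 0.19, adjusted p = 0.0218) with Pgam1 at 0.16 (adjusted p = 0.446). Ckmt2, the mitochondrial creatine kinase of muscle, was lower (log2 fold change -0.58, SE 0.16, adjusted p = 0.032). Ldhb, the lactate dehydrogenase subunit of heart, was lower (log2 fold change -0.49, SE 0.14, adjusted p = 0.0343), and Ldha gave -0.19 (adjusted p = 0.271). The carriers Slc25a4 (-0.16, adjusted p = 0.405) and Slc25a5 (-0.05, adjusted p = 0.804) did not pass. With the length and GC offset the medians were -0.38 for the muscle forms and 0.16 for the ubiquitous forms, so the latter changed sign. With it 2 of the 8 muscle forms were lower, against 7 without it, and 0 of the 7 ubiquitous forms were lower and 1 higher. The difference between the forms was not tested. Cox8b, Cox6a2 and Pgam2 lost the call without DOX mouse 22 or 24 or vehicle mouse 2 (adjusted p up to 0.0777). Ckmt2 lost the call without DOX mouse 22 or 24 or vehicle mouse 2 or 3 (adjusted p up to 0.116). Cox8a, Cox7a2, Eno3 and Ldhb were called in only 2 to 7 of the 12 such fits (adjusted p up to 0.193).

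**Figure D4:**
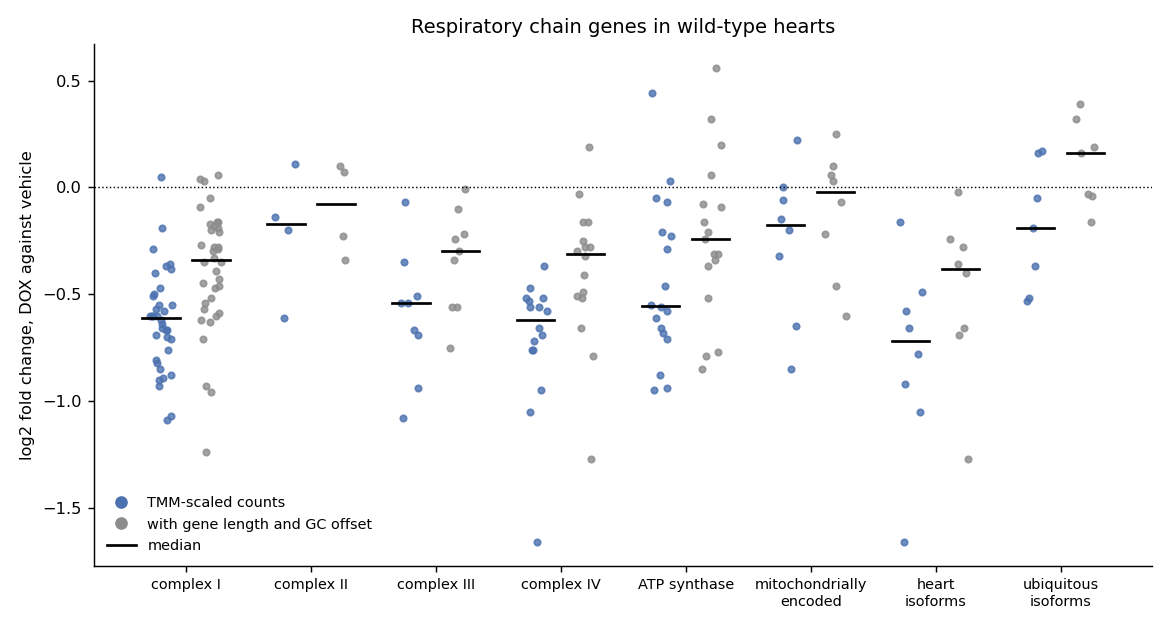
Log2 fold change (DOX against vehicle, y axis) of each tested gene of the respiratory complexes, of the mitochondrially encoded protein genes and of the paired isoforms (x axis), from TMM-scaled counts (blue) and with a gene length and GC offset (grey); black lines are medians. Medians for complexes I, III and IV and ATP synthase lie between -0.62 and -0.54 without the offset and between -0.34 and -0.24 with it.

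Genes encoded in the mitochondrial genome itself did not pass. Of 13, 8 were tested and 0 were called in either direction by edgeR's quasi-likelihood test (median -0.18, and -0.02 with the offset). DESeq2 called 0 and limma-voom 3 of them, and 1 had an unadjusted p below 0.05. The proteins of the mitochondrial ribosome, which are nuclear genes, fell. Of 77 tested, 38 were lower and 0 higher, and 74 had a fold change below 0 (median -0.44, and -0.33 with the offset). Mrpl4 measured 76.5, 97.5 and 82.3 CPM in vehicle hearts and 58.9, 49 and 55.2 CPM after DOX, without overlap (log2 fold change -0.65, SE 0.11, adjusted p = 0.00899). Mrpl28 (log2 fold change -0.92, SE 0.17, adjusted p = 0.0109), Mrps21 (log2 fold change -0.80, SE 0.14, adjusted p = 0.0111) and Mrps28 (log2 fold change -0.81, SE 0.15, adjusted p = 0.0111) also fell. Between 1 and 60 members were lower when 1 wild-type library was left out. For the cytosolic ribosome, 3 of 78 tested proteins were lower and 1 higher, and the median of -0.24 became 0.05 with the offset. Leaving out 1 wild-type library gave between 0 and 50 lower and between 0 and 1 higher, with the 50 lower calls when vehicle mouse 1 was left out. Rpl3l, the muscle form of ribosomal protein L3, measured 289, 454 and 371 CPM against 259, 144 and 103 CPM (log2 fold change -1.14, SE 0.27, adjusted p = 0.02). Its general partner Rpl3 was the member called higher. Rps4l (-0.75) and Rpl13a (-0.64) were the other lower members, and both have near-identical copies among which reads may have been divided. Mrpl4 was called in all 12 fits that left out 1 library. Mrps21 lost the call without DOX mouse 24 (adjusted p up to 0.0517). Rps4l lost the call without vehicle mouse 2 (adjusted p up to 0.0517). Mrpl28 and Mrps28 lost the call without DOX mouse 22 or 24 (adjusted p up to 0.0543). Rpl3l and Rpl13a lost the call without DOX mouse 22 or 24 or vehicle mouse 2 or 3 (adjusted p up to 0.118).

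Regulators of mitochondrial genes were called in both directions. Ppargc1a, the coactivator PGC-1α, measured 161, 90 and 121 CPM in vehicle hearts and 181, 192 and 232 CPM after DOX, higher in every DOX heart (log2 fold change 0.70, SE 0.18, adjusted p = 0.0252). Ppara, the nuclear receptor for fatty acids, measured 17.2, 2.69 and 7.3 CPM against 26.3, 24.9 and 32.8 CPM (log2 fold change 1.64, SE 0.43, adjusted p = 0.0266). Its vehicle values were widely spread, lowest in vehicle mouse 2. Sirt1, a deacetylase that acts on PGC-1α, measured 15.9, 8.53 and 12.6 CPM against 15.6, 24.1 and 20.4 CPM, with vehicle mouse 1 inside the DOX range (log2 fold change 0.70, SE 0.20, adjusted p = 0.0328). Of 23 tested regulators these 3 were higher (13%) and 2, Sirt3 and Esrra, were lower (8.7%), beside 9.39% and 9.2% of all genes (median 0.12). Without 1 wild-type library, between 0 and 6 regulators were higher and between 0 and 3 lower.

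Of 40 tested genes of fatty acid uptake and oxidation, 2 were higher and 4 lower (median 0.14). The lower share, 10%, was close to the 9.2% of all genes, and the higher share, 5%, was below 9.39%. Fabp4, the fatty acid binding protein of capillary endothelium and fat, measured 655, 865 and 768 CPM in vehicle hearts and 407, 430 and 324 CPM after DOX (log2 fold change -0.98, SE 0.16, adjusted p = 0.00906). Etfb, an electron carrier of β-oxidation (log2 fold change -0.89, SE 0.20, adjusted p = 0.0173), Acads, the short-chain dehydrogenase (log2 fold change -0.63, SE 0.14, adjusted p = 0.0185), and Acot13, a thioesterase (log2 fold change -0.56, SE 0.14, adjusted p = 0.0226), were lower. Cpt1b, the muscle carnitine transferase, measured 16.9, 6.6 and 13.6 CPM against 13, 26.1 and 18.1 CPM and did not pass (log2 fold change 0.63, SE 0.29, adjusted p = 0.143). Of 20 genes of the tricarboxylic acid cycle, 1 was higher and 4 lower (median -0.03). They were Fh1, fumarase (log2 fold change -0.42, SE 0.11, adjusted p = 0.025), Suclg1, of succinyl-CoA ligase (log2 fold change -0.47, SE 0.12, adjusted p = 0.0255), Mdh2, malate dehydrogenase (log2 fold change -0.42, SE 0.12, adjusted p = 0.0358), and Idh3b, of isocitrate dehydrogenase (log2 fold change -0.38, SE 0.12, adjusted p = 0.0451). Pdk4, the kinase that shuts off pyruvate oxidation, measured 604, 617 and 626 CPM in vehicle hearts and 246, 3243 and 412 CPM after DOX. DOX mouse 22 lay far above and the other DOX hearts below every vehicle heart, and the gene did not pass (log2 fold change 1.08, SE 0.70, adjusted p = 0.279). Without mouse 22 its value was -0.90 (adjusted p = 0.0967).

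Some genes of glucose use and storage rose. Of 30 tested genes of glycolysis and glycogen, 5 were higher (16.7%) and 3 lower (10%), beside 9.39% and 9.2% of all genes (median 0.02). Hk1, hexokinase 1, measured 175, 139 and 159 CPM in vehicle hearts and 216, 250 and 286 CPM after DOX, without overlap (log2 fold change 0.67, SE 0.12, adjusted p = 0.0105). Gbe1, the glycogen branching enzyme, measured 40.8, 32.1 and 33.5 CPM against 51.1, 64.8 and 112 CPM (log2 fold change 1.10, SE 0.22, adjusted p = 0.0147), and Pfkfb3, which makes the activator of phosphofructokinase, 6.86, 6.63 and 8.41 CPM against 12.1, 23.8 and 12.6 CPM (log2 fold change 1.15, SE 0.32, adjusted p = 0.0306). Among 35 tested insulin signalling genes 8 were higher and 1 lower (median 0.23, and 0.09 with the length and GC offset). Beside Irs2 these included Pdpk1, the kinase that activates Akt (30.6, 19.9 and 28.5 CPM against 36.3, 48.7 and 60.2 CPM, log2 fold change 0.88, SE 0.18, adjusted p = 0.0161), Mtor (59.3, 38.6 and 46.8 CPM against 66, 85.4 and 78 CPM, log2 fold change 0.67, SE 0.15, adjusted p = 0.0174) and Igfbp3, a binding protein for insulin-like growth factors (21.3, 34.8 and 29.3 CPM against 58.7, 54.1 and 79.8 CPM, log2 fold change 1.17, SE 0.23, adjusted p = 0.0143). Fabp4 and Hk1 were called in all 12 fits that left out 1 library. Igfbp3 lost the call without DOX mouse 24 (adjusted p up to 0.0606). Gbe1 lost the call without vehicle mouse 2 (adjusted p up to 0.0514). Etfb lost the call without DOX mouse 22 or 24 (adjusted p up to 0.0712). Acads, Acot13 and Pdpk1 lost the call without DOX mouse 22 or 24 or vehicle mouse 2 (adjusted p up to 0.0917). Ppara lost the call without DOX mouse 22 or 24 or vehicle mouse 3 (adjusted p up to 0.0906). Ppargc1a, Sirt1, Fh1, Suclg1, Pfkfb3 and Mtor lost the call without DOX mouse 22 or 24 or vehicle mouse 2 or 3 (adjusted p up to 0.126). Mdh2 and Idh3b were called in only 3 to 4 of the 12 such fits (adjusted p up to 0.155). Of 25 tested cholesterol synthesis genes 1 was higher (4%) and 2 lower (8%), beside 9.39% and 9.2% of all genes (median 0.00).

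Glucocorticoids are adrenal hormones whose receptor acts on genes in every tissue. Of 28 tested genes that they induce, 9 were higher and 0 lower (median 0.61). Hif3a measured 1.6, 0.933 and 1.83 CPM in vehicle hearts and 4.35, 8.99 and 7.03 CPM after DOX. Fkbp5, a chaperone of the hormone receptor, measured 21.3, 12.8 and 26.2 CPM against 57.1, 76.7 and 92 CPM, without overlap (log2 fold change 1.91, SE 0.36, adjusted p = 0.0128). Lcn2, the iron-siderophore binding protein lipocalin 2, measured 3.12, 2.97 and 3.17 CPM against 4.39, 67.2 and 21.3 CPM (log2 fold change 3.32, SE 0.74, adjusted p = 0.0175). It is also a neutrophil and acute phase gene, and mouse 21 lay close to vehicle. The receptor's element, AGAACA and TGTTCT with 3 bases between them and up to 2 mismatches in these arms, matched 5 of 34 windows of the list (14.7%), in Fam107a, Sgk1 and Sult1a1, against 1.84% of all windows. None of the 8 called members with a window had a match there. When 1 wild-type library was left out, between 1 and 11 members were higher.

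The clock genes Per1 (52.8, 38.8 and 79.5 CPM in vehicle hearts and 92.5, 138 and 95.3 CPM after DOX, log2 fold change 0.93, SE 0.22, adjusted p = 0.0195), Cry1 (6.63, 5.8 and 6.23 CPM against 9.2, 10.9 and 14.5 CPM, log2 fold change 0.90, SE 0.17, adjusted p = 0.0127) and Nfil3 (9.31, 14.5 and 10.9 CPM against 18.4, 47.8 and 17.3 CPM, log2 fold change 1.26, SE 0.33, adjusted p = 0.0265) were higher. Per1 and Cry1 repress the clock's own activators, and Nfil3 represses clock output genes. With Cry2 (log2 fold change 0.54, SE 0.17, adjusted p = 0.0485) they made 4 higher and 2 lower of 19 tested clock genes (median 0.11). These shares were 21.1% and 10.5%, beside 9.39% and 9.2% of all genes. The lower ones were Nr1d1 and Dbp. The time of day of collection is not given in the sources used here. Among 25 tested immediate early genes 5 were higher (20%) and 2, Egr1 and Ier2, lower (8%), beside 9.39% and 9.2% of all genes (median 0.09). Nr4a1 measured 16.1, 26.1 and 24.4 CPM against 78.5, 176 and 49.5 CPM. Atf3, a stress-induced transcription factor, measured 4.54, 11.7 and 15.6 CPM against 17.2, 128 and 15.6 CPM (log2 fold change 2.33, SE 0.69, adjusted p = 0.0384), and Fosl2, of the AP-1 family, 21.1, 23.6 and 28.3 CPM against 41.7, 140 and 33.4 CPM (log2 fold change 1.56, SE 0.41, adjusted p = 0.0266). For both the value of mouse 22 stood far above the other DOX hearts, which lay nearer to vehicle. Myc measured 2.76, 3.28 and 2.54 CPM against 2.34, 19 and 9.27 CPM, with mouse 21 below every vehicle heart (log2 fold change 1.83, SE 0.55, adjusted p = 0.0402). Fkbp5 and Cry1 lost the call without DOX mouse 24 (adjusted p up to 0.0517). Per1 lost the call without DOX mouse 22 or 24 or vehicle mouse 2 (adjusted p up to 0.0811). Nfil3 and Fosl2 lost the call without DOX mouse 22 or vehicle mouse 2 or 3 (adjusted p up to 0.0877). Lcn2 lost the call without DOX mouse 22 or 24 or vehicle mouse 2 or 3 (adjusted p up to 0.0701). Cry2, Atf3 and Myc were called in only 2 to 4 of the 12 such fits (adjusted p up to 0.279).

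Protective programs were called in both directions. NRF2 is the transcription factor that answers oxidants by inducing glutathione and detoxifying enzymes. Of 41 tested NRF2 and antioxidant genes 10 were higher (24.4%) and 5 lower (12.2%), beside 9.39% and 9.2% of all genes (median 0.03). The lower ones were Prdx5, Gstt1, Sod3, Prdx2 and Txnrd2. The gene of NRF2 itself, Nfe2l2, measured 73.5, 65.8 and 78.1 CPM in vehicle hearts and 93.6, 138 and 105 CPM after DOX, without overlap (log2 fold change 0.63, SE 0.13, adjusted p = 0.0159). Gsta3, a glutathione transferase, measured 4.14, 6.15 and 4.92 CPM against 9.06, 13.4 and 14.9 CPM (log2 fold change 1.29, SE 0.18, adjusted p = 0.00858). Mgst1, the microsomal transferase, measured 33.7, 54.3 and 46.8 CPM against 54.4, 108 and 87.5 CPM (log2 fold change 0.89, SE 0.23, adjusted p = 0.0246). Gclm, a subunit of the enzyme that starts glutathione synthesis, measured 19.9, 14.9 and 18.8 CPM against 16, 45 and 74.8 CPM, and Hmox1, heme oxygenase 1, 7.97, 7.46 and 9.09 CPM against 5.25, 24.7 and 75.7 CPM. In both genes mouse 21 was not above vehicle while mice 22 and 24 were (log2 fold change 1.34, SE 0.38, adjusted p = 0.0324 for Gclm; log2 fold change 2.11, SE 0.65, adjusted p = 0.0428 for Hmox1). Between 1 and 14 members were higher and between 0 and 11 lower when 1 wild-type library was left out.

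Iron handling bears on DOX because the drug binds iron. Of 33 tested iron and ferroptosis genes 6 were higher (18.2%) and 3 lower (9.09%), beside 9.39% and 9.2% of all genes (median 0.11). Cp, ceruloplasmin, the copper oxidase that loads iron onto transferrin, measured 95.3, 68.1 and 77.5 CPM in vehicle hearts and 149, 209 and 165 CPM after DOX (log2 fold change 1.12, SE 0.18, adjusted p = 0.00911). Fth1, the ferritin heavy chain that stores iron, measured 1582, 2076 and 1816 CPM against 2059, 2710 and 2676 CPM (log2 fold change 0.44, SE 0.13, adjusted p = 0.0381). DOX mouse 21 lay just inside the vehicle range for Fth1. Ncoa4, the receptor that delivers ferritin to lysosomes, measured 12.6, 4.94 and 9.01 CPM against 15.1, 17 and 14.6 CPM (log2 fold change 0.82, SE 0.23, adjusted p = 0.033), and Acsl4, a ligase that makes lipids prone to ferroptosis, 11.6, 9.77 and 11.1 CPM against 13.6, 15.3 and 17.6 CPM (log2 fold change 0.52, SE 0.12, adjusted p = 0.0211). Tfrc, the transferrin receptor, measured 46.1, 40 and 44.9 CPM against 102, 24.4 and 114 CPM. Mouse 22 was below and mice 21 and 24 above every vehicle heart, and Tfrc did not pass (log2 fold change 0.88, SE 0.55, adjusted p = 0.264). Gsta3 and Cp were called in all 12 fits that left out 1 library. Nfe2l2 lost the call without DOX mouse 22 or 24 or vehicle mouse 2 (adjusted p up to 0.0584). Mgst1 lost the call without DOX mouse 22 or 24 or vehicle mouse 3 (adjusted p up to 0.0976). Gclm, Ncoa4 and Acsl4 lost the call without DOX mouse 22 or 24 or vehicle mouse 2 or 3 (adjusted p up to 0.147). Hmox1 and Fth1 were called in only 2 to 4 of the 12 such fits (adjusted p up to 0.269).

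Of 33 tested genes of the integrated stress and unfolded protein responses 7 were higher and 1 lower (median 0.10). Slc3a2, the heavy chain of amino acid transporters, measured 40.4, 48.7 and 47.5 CPM in vehicle hearts and 57, 98.6 and 82 CPM after DOX (log2 fold change 0.80, SE 0.16, adjusted p = 0.0147). Atf6, a sensor of the endoplasmic reticulum, measured 109, 83.1 and 103 CPM against 126, 196 and 173 CPM (log2 fold change 0.75, SE 0.17, adjusted p = 0.0174), and Dnajb9, a co-chaperone of the same compartment, 46.9, 42.9 and 45.1 CPM against 65.6, 59.2 and 57.6 CPM (log2 fold change 0.43, SE 0.10, adjusted p = 0.0208). Sesn2, a sestrin induced by both stress and p53, measured 3.03, 3.45 and 3.41 CPM against 4.35, 5.68 and 5.13 CPM (log2 fold change 0.61, SE 0.15, adjusted p = 0.0215). Autophagy and lysosome genes had 5 of 41 higher (12.2%) and 1 lower (2.44%), beside 9.39% and 9.2% of all genes (median 0.10). Lamp2, a lysosomal membrane protein, measured 138, 112 and 128 CPM against 170, 245 and 229 CPM, without overlap (log2 fold change 0.77, SE 0.13, adjusted p = 0.0099), and Atg13, of the initiating kinase complex, 58.8, 51.7 and 58.5 CPM against 67.9, 140 and 119 CPM (log2 fold change 0.95, SE 0.24, adjusted p = 0.0239). Atg9a, which supplies membrane to autophagosomes, was higher (log2 fold change 0.90, SE 0.25, adjusted p = 0.0301). Of 22 tested muscle atrophy ligases 3 were higher (13.6%) and 1 lower (4.55%), beside 9.39% and 9.2% of all genes (median 0.29). The higher ones were Fbxo40 (log2 fold change 0.52, SE 0.15, adjusted p = 0.0351), Trim55 (log2 fold change 0.35, SE 0.10, adjusted p = 0.0386) and Nedd4 (log2 fold change 0.49, SE 0.15, adjusted p = 0.0445).

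Chaperones of the heat shock response were called about as often as all genes tested. Of 28 tested 2 were higher (7.14%) and 3 lower (10.7%), beside 9.39% and 9.2% (median -0.11). Hsph1, an exchange factor of HSP70, measured 41.8, 78.5 and 47.5 CPM against 37.8, 26 and 25.1 CPM (log2 fold change -0.92, SE 0.24, adjusted p = 0.0266). Hspe1, the mitochondrial chaperonin cofactor (log2 fold change -0.80, SE 0.22, adjusted p = 0.0306), and Dnaja1, an HSP40 (log2 fold change -0.72, SE 0.21, adjusted p = 0.0358), were lower. Among 38 tested apoptosis and pyroptosis genes 1 was higher (2.63%) and 2 lower (5.26%), beside 9.39% and 9.2% of all genes (median -0.03). The lower ones were Diablo, which releases caspases from inhibition (log2 fold change -0.57, SE 0.16, adjusted p = 0.0313), and Casp6 (log2 fold change -0.42, SE 0.12, adjusted p = 0.0351). Of 29 tested genes of polyamine, nucleotide and amino acid stress 4 were higher and 2 lower (median 0.18). These were 13.8% and 6.9%, beside 9.39% and 9.2% of all genes. Azin1, the antizyme inhibitor that sustains polyamine synthesis, measured 57.6, 53.1 and 60.3 CPM in vehicle hearts and 83.7, 117 and 120 CPM after DOX (log2 fold change 0.91, SE 0.13, adjusted p = 0.0086), and Nt5e, the enzyme CD73 that makes adenosine, 13.5, 11.8 and 18.7 CPM against 35.6, 30.6 and 22.2 CPM (log2 fold change 1.00, SE 0.24, adjusted p = 0.0208). Lamp2 and Azin1 were called in all 12 fits that left out 1 library. Slc3a2 lost the call without DOX mouse 22 or 24 (adjusted p up to 0.0583). Nt5e lost the call without DOX mouse 22 or vehicle mouse 2 (adjusted p up to 0.0763). Atf6 lost the call without DOX mouse 22 or 24 or vehicle mouse 2 (adjusted p up to 0.0733). Dnajb9, Sesn2, Atg13, Atg9a, Hsph1, Hspe1 and Diablo lost the call without DOX mouse 22 or 24 or vehicle mouse 2 or 3 (adjusted p up to 0.12). Fbxo40, Trim55, Nedd4, Dnaja1 and Casp6 were called in only 2 to 6 of the 12 such fits (adjusted p up to 0.149).

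Many vessel genes fell. In bulk heart RNA, fewer cells of a type and less RNA per cell cannot be told apart, here and in the paragraphs on other cell types. Of 32 tested endothelial markers 14 were lower and 0 higher (median -0.37), and their summed level was 3600, 3570 and 3738 CPM in vehicle hearts and 2883, 2736 and 2327 CPM after DOX. The general endothelial marker Pecam1 measured 167, 164 and 174 CPM against 150, 165 and 153 CPM and did not pass (log2 fold change -0.11, SE 0.08, adjusted p = 0.36). Aplnr, the receptor for apelin on endothelium, measured 29.8, 30.7 and 22.4 CPM in vehicle hearts and 7.01, 1.53 and 1.32 CPM after DOX. Mouse 21 kept more than the other DOX hearts and still lay far below vehicle (log2 fold change -3.09, SE 0.48, adjusted p = 0.00887). Its ligand Apln measured 13.5, 12.3 and 11.3 CPM against 6.11, 1.09 and 2.04 CPM (log2 fold change -2.01, SE 0.45, adjusted p = 0.0175). Aqp7, an aquaglyceroporin of capillaries and fat, measured 35.9, 21 and 25.9 CPM against 8.2, 12.3 and 7.4 CPM (log2 fold change -1.57, SE 0.23, adjusted p = 0.0086), and Egfl7, a matrix protein secreted by endothelium, 80.2, 125 and 99.4 CPM against 59.3, 49 and 48.4 CPM (log2 fold change -0.96, SE 0.17, adjusted p = 0.0101).

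Of 46 tested vascular growth factors and receptors 11 were lower and 3 higher (median -0.23). Heyl, a Notch target of vessel walls, measured 28.1, 23 and 29.1 CPM in vehicle hearts and 17.1, 16.4 and 17.8 CPM after DOX, with tight groups (log2 fold change -0.65, SE 0.10, adjusted p = 0.00887). Ramp2, the co-receptor for adrenomedullin, measured 30.5, 41.9 and 35.6 CPM against 25.9, 24.5 and 20.5 CPM (log2 fold change -0.61, SE 0.14, adjusted p = 0.0176). Pericyte and smooth muscle markers had 6 of 20 lower and 1 higher (median -0.27). The lower ones included pericyte genes. Kcnj8, a subunit of the potassium channel that opens when ATP is low, measured 44, 45.7 and 43.9 CPM against 31.7, 29.9 and 25.9 CPM (log2 fold change -0.61, SE 0.10, adjusted p = 0.00951). Higd1b (6.14, 9.43 and 8.09 CPM against 5.89, 3.28 and 2.74 CPM, adjusted p = 0.0305), Ndufa4l2 (log2 fold change -0.84, SE 0.19, adjusted p = 0.0174) and Vtn, vitronectin (log2 fold change -0.72, SE 0.18, adjusted p = 0.0235), were lower too. In sum this list measured 3582, 3763 and 3619 CPM in vehicle hearts and 3525, 4429 and 4067 CPM after DOX, so it did not fall as a sum. Aplnr, Aqp7, Heyl and Kcnj8 were called in all 12 fits that left out 1 library. Egfl7 lost the call without DOX mouse 22 or 24 (adjusted p up to 0.0517). Apln and Ndufa4l2 lost the call without DOX mouse 22 or 24 or vehicle mouse 2 (adjusted p up to 0.0749). Ramp2, Higd1b and Vtn lost the call without DOX mouse 22 or 24 or vehicle mouse 2 or 3 (adjusted p up to 0.114). Between 3 and 15 endothelial markers were lower when 1 wild-type library was left out.

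Of 22 tested fibroblast markers 3 were lower (13.6%) and 1 higher (4.55%), beside 9.2% and 9.39% of all genes (median -0.64). Pi16, a peptidase inhibitor that marks adventitial fibroblasts, measured 60.6, 112 and 73.9 CPM in vehicle hearts and 31, 23.1 and 7.43 CPM after DOX (log2 fold change -2.01, SE 0.43, adjusted p = 0.0168). Meox1, a homeobox factor of activated fibroblasts, measured 12.1, 17.6 and 12.2 CPM against 6.33, 2.58 and 2.39 CPM, without overlap (log2 fold change -1.90, SE 0.38, adjusted p = 0.0146). Thy1, the surface glycoprotein CD90, measured 6.37, 9.43 and 7.46 CPM against 5.28, 2.11 and 2.62 CPM (log2 fold change -1.22, SE 0.34, adjusted p = 0.0311). The summed level of the fibroblast markers, at 2276, 3822 and 2625 CPM in vehicle hearts and 2430, 2449 and 2247 CPM after DOX, was set apart mainly by vehicle mouse 2. Matrix genes were called about as often upward (4 of 60 tested, 6.67%) as downward (3, or 5%). Over all genes the shares were 9.39% and 9.2%, and the median of the list was -0.34. The higher ones were Thbs2, thrombospondin 2, a matricellular protein (23.4, 18.1 and 20.6 CPM in vehicle hearts and 34.3, 94.8 and 69.8 CPM after DOX, log2 fold change 1.68, SE 0.30, adjusted p = 0.0103), Lox, which cross-links collagen (4.94, 5.87 and 4.56 CPM against 7.22, 17.7 and 14 CPM, log2 fold change 1.34, SE 0.32, adjusted p = 0.0203), the protease gene Adamts1 (37.8, 39.9 and 61.8 CPM against 71.5, 132 and 80.9 CPM, log2 fold change 1.03, SE 0.24, adjusted p = 0.0186), and the membrane protease gene Mmp14 (log2 fold change 0.74, SE 0.23, adjusted p = 0.0428). Among 38 tested genes of TGF-β, BMP and activin signalling 5 were lower and 1 higher (median 0.01). Tgfb1 measured 21.2, 23.5 and 20.9 CPM against 16.2, 13.7 and 14.2 CPM (log2 fold change -0.57, SE 0.11, adjusted p = 0.0117), Gdf11 2.18, 1.62 and 1.67 CPM against 0.935, 0.328 and 0.49 CPM (log2 fold change -1.64, SE 0.32, adjusted p = 0.0139), and the endothelial BMP receptor gene Acvrl1 38.9, 46.2 and 43.2 CPM against 34.9, 29.3 and 25.8 CPM (log2 fold change -0.51, SE 0.13, adjusted p = 0.0247). Thbs2 was called in all 12 fits that left out 1 library. Meox1, Tgfb1 and Gdf11 lost the call without DOX mouse 22 or 24 (adjusted p up to 0.0636). Pi16 lost the call without DOX mouse 22 or vehicle mouse 2 (adjusted p up to 0.0636). Adamts1 lost the call without DOX mouse 22 or 24 or vehicle mouse 2 (adjusted p up to 0.0717). Thy1, Lox and Acvrl1 lost the call without DOX mouse 22 or 24 or vehicle mouse 2 or 3 (adjusted p up to 0.116). Mmp14 was called in only 3 of the 12 such fits (adjusted p up to 0.177).

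Neutrophil transcripts rose from near absence. Of 22 markers 11 passed the filter, of which 9 were higher and 0 lower. The filter covered all 12 libraries, and a scarce marker passes it through those where it is high, which include the DOX hearts. The count is therefore given as a description. In sum all 22 reached 7.7, 10.1 and 9.8 CPM in vehicle hearts and 17.7, 118 and 60.8 CPM after DOX. Lcn2 accounted for more of this sum than any other gene named here. The counts were between 3 and 9 higher when 1 wild-type library was left out. The calprotectin genes S100a8 (0.445, 0.311 and 0.595 CPM in vehicle hearts and 2.23, 10.7 and 9.1 CPM after DOX, log2 fold change 4.03, SE 0.56, adjusted p = 0.00858) and S100a9 (0.668, 0.691 and 1.31 CPM against 3.27, 14.7 and 10.5 CPM, log2 fold change 3.41, SE 0.49, adjusted p = 0.00858) rose. Cxcr2, the chemokine receptor of neutrophils, measured 0.0445, 0 and 0.0397 CPM against 0.431, 1.24 and 1.58 CPM (log2 fold change 5.15, SE 0.71, adjusted p = 0.00858), and the collagenase Mmp8 0.223, 0.138 and 0 CPM against 0.431, 2.66 and 3.4 CPM (log2 fold change 4.15, SE 0.84, adjusted p = 0.0152). DOX mouse 21 was the lowest DOX heart for each of these 4. Elane, the elastase of neutrophil precursors, was at 0 in all wild-type libraries.

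Macrophage and monocyte markers were called at a share near that of all genes tested. The summed level of 36 macrophage and monocyte markers overlapped between the groups, at 403, 795 and 496 CPM in vehicle hearts and 518, 595 and 513 CPM after DOX. Of 33 tested, 3 were higher and 3 lower (median -0.20), which is 9.09% each way beside 9.39% and 9.2% over all genes. Cd163, the hemoglobin scavenger receptor of resident macrophages, measured 13.4, 16.2 and 16.1 CPM in vehicle hearts and 22.4, 27.9 and 30.8 CPM after DOX, without overlap (log2 fold change 0.83, SE 0.22, adjusted p = 0.028), and Gpnmb, a glycoprotein of lipid-laden macrophages, 1.69, 2.07 and 1.75 CPM against 1.47, 10.6 and 6.68 CPM (log2 fold change 1.76, SE 0.57, adjusted p = 0.0494). Ccr2, the receptor of recruited monocytes, measured 2.85, 3.42 and 2.74 CPM against 1.29, 1.17 and 1.15 CPM and fell (log2 fold change -1.32, SE 0.27, adjusted p = 0.0155). Cx3cr1, the fractalkine receptor, measured 3.03, 2.73 and 1.94 CPM against 1.26, 0.728 and 0.374 CPM (log2 fold change -1.72, SE 0.45, adjusted p = 0.0262), and Aif1 fell too (log2 fold change -1.28, SE 0.40, adjusted p = 0.0441). Of 18 dendritic cell markers 12 were tested, of which 4 were lower and 0 higher (median -0.42). Scarce members pass the filter through hearts where they are higher, so this count is a description. Fscn1, the actin bundler fascin, measured 22.3, 29.5 and 25.4 CPM against 13.5, 9.54 and 6.59 CPM (log2 fold change -1.38, SE 0.23, adjusted p = 0.00937), and Cd209a, a lectin of monocyte-derived dendritic cells, 0.312, 0.553 and 0.516 CPM against 0.0719, 0 and 0.0288 CPM (log2 fold change -3.62, SE 0.83, adjusted p = 0.0185). Zbtb46 (log2 fold change -0.55, SE 0.15, adjusted p = 0.0305) and Cd83 (log2 fold change -1.52, SE 0.45, adjusted p = 0.0379) were the others. Of 37 lymphocyte, NK and mast cell markers 12 were tested, of which 1 was higher and 1 lower. That is 8.33% each way, beside 9.39% and 9.2% of all genes. The lower one was Ighm, the IgM heavy chain (4.54, 5.6 and 3.49 CPM against 3.2, 1.31 and 2.22 CPM, log2 fold change -1.02, SE 0.28, adjusted p = 0.0289). S100a8, S100a9, Cxcr2 and Fscn1 were called in all 12 fits that left out 1 library. Mmp8, Ccr2 and Ighm lost the call without DOX mouse 22 or 24 or vehicle mouse 2 (adjusted p up to 0.109). Cd163, Cx3cr1 and Cd209a lost the call without DOX mouse 22 or 24 or vehicle mouse 2 or 3 (adjusted p up to 0.102). Zbtb46 lost the call without DOX mouse 22 or 24 or vehicle mouse 1, 2 or 3 (adjusted p up to 0.114). Gpnmb, Aif1 and Cd83 were called in only 2 to 6 of the 12 such fits (adjusted p up to 0.205).

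Genes for antigen presentation on MHC class II fell. Ciita is the coactivator that switches on all class II genes, and Cd74 is the chain that guides class II molecules through the cell. All 8 members that passed the filter were lower (median -2.80), out of 12 symbols in the files. Since scarce members pass it through hearts where they are higher, such as the vehicle hearts, this is a description. Between 1 and 8 were lower when 1 wild-type library was left out. In sum the 12 measured 209, 439 and 265 CPM in vehicle hearts and 107, 13.9 and 9.82 CPM after DOX. H2-Ab1, a β chain, measured 30.1, 70.2 and 37.1 CPM in vehicle hearts and 14, 1.57 and 1.18 CPM after DOX. Mice 22 and 24 had almost none, and mouse 21 lay between them and vehicle (log2 fold change -3.05, SE 0.70, adjusted p = 0.0187). H2-Aa measured 45.3, 84.8 and 55.6 CPM against 23.4, 2.04 and 1.58 CPM (log2 fold change -2.79, SE 0.75, adjusted p = 0.0279), H2-Eb1 32.4, 74.1 and 46.5 CPM against 18, 1.97 and 1.18 CPM (log2 fold change -2.87, SE 0.74, adjusted p = 0.0252), and Cd74 93.7, 197 and 116 CPM against 47.6, 6.59 and 4.32 CPM (log2 fold change -2.80, SE 0.69, adjusted p = 0.0219). Ciita measured 1.16, 1.59 and 1.19 CPM against 0.395, 0.0364 and 0 CPM (log2 fold change -3.22, SE 0.70, adjusted p = 0.0168). H2-DMa, of the complex that loads peptides, measured 3.7, 6.01 and 4.29 CPM against 1.98, 0.947 and 0.749 CPM (log2 fold change -1.94, SE 0.33, adjusted p = 0.00987), and H2-DMb1 1.96, 4.18 and 2.54 CPM against 1.4, 0.473 and 0.576 CPM (log2 fold change -1.83, SE 0.40, adjusted p = 0.0173). In the 2 DOX hearts titled with the suffix the list's median difference from vehicle mouse 1 was -3.94, and in DOX mouse 21 against vehicle mice 2 and 3 it was -1.59. H2-DMa was called in all 12 fits that left out 1 library. H2-Ab1, Ciita and H2-DMb1 lost the call without DOX mouse 22 or 24 or vehicle mouse 2 (adjusted p up to 0.0712). H2-Aa, H2-Eb1 and Cd74 lost the call without DOX mouse 22 or 24 or vehicle mouse 2 or 3 (adjusted p up to 0.0913).

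Class II promoters share an upstream module that ends in an inverted CCAAT box, the Y box, and Ciita acts through the proteins bound there. Stretches of 4 class II promoters are shown because these genes fell together and each carries the box in the stretch just upstream of its start. All 5 tested class II genes with a window in the RefSeq table (H2-Aa, H2-DMa, H2-DMb1, H2-Eb1 and H2-Ob) held CCAAT on either strand, or 5 of their 6 windows (83.3%), against 37.4% of all windows. For H2-DMa the match upstream lay farther from the start, in a stretch from -243 to -186, and is not shown. Capitals mark the match, ATTGG where it lies on the other strand. The stretches lie on GRCm38.p6 at chr17:34287859-34287916 (minus strand), chr17:34305763-34305844, chr17:34153085-34153142 and chr17:34238803-34238860 (plus strand).
H2-Aa: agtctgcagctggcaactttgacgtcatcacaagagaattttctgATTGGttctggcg
H2-Eb1: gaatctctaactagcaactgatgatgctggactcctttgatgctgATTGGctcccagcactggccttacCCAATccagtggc
H2-DMb1: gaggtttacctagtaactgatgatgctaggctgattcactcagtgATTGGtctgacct
H2-Ob: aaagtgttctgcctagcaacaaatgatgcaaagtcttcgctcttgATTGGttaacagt

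MHC class I and its processing genes moved less (median -0.28). Of 19 tested, 2 were lower (10.5%, close to the 9.2% of all genes) and 0 higher (beside 9.39%). These were the proteasome activator genes Psme1 (110, 172 and 133 CPM in vehicle hearts and 106, 85.2 and 75.6 CPM after DOX, log2 fold change -0.64, SE 0.16, adjusted p = 0.0233) and Psme2 (log2 fold change -0.50, SE 0.16, adjusted p = 0.044). Interferon response genes had 5 of 46 higher (10.9%, close to the 9.39% of all genes) and 0 lower (beside 9.2%), with a median of 0.07. Ifi205 and Ifi207 belong to a cluster of interferon-inducible DNA-binding proteins. Ifi205 measured 9.66, 8.01 and 12.7 CPM against 19.3, 25.4 and 18.7 CPM (log2 fold change 1.06, SE 0.19, adjusted p = 0.0111), and Ifi207 10.7, 8.36 and 16.1 CPM against 20.5, 38.1 and 26.1 CPM (log2 fold change 1.27, SE 0.29, adjusted p = 0.0192). These genes are close copies of each other, and how reads shared between copies were counted is not given. Gbp6, a guanylate-binding protein, measured 4.63, 2.76 and 4.32 CPM against 7.08, 10.3 and 8.78 CPM (log2 fold change 1.16, SE 0.24, adjusted p = 0.0155), and Ifit2 was higher as well (log2 fold change 0.86, SE 0.25, adjusted p = 0.0356). Among 29 tested chemokine and cytokine genes, Osmr, the oncostatin M receptor, was higher (25.8, 19.2 and 28.7 CPM against 31.9, 61.5 and 40.3 CPM, log2 fold change 0.86, SE 0.21, adjusted p = 0.0222) and Cxcl16 lower (log2 fold change -0.84, SE 0.26, adjusted p = 0.0401). Of 29 tested complement and acute phase genes 4 were higher (13.8%) and 1 lower (3.45%), beside 9.39% and 9.2% of all genes (median 0.06). Serpina3n (6.37, 14.3 and 9.36 CPM against 16.6, 91.8 and 41.6 CPM, log2 fold change 2.31, SE 0.54, adjusted p = 0.0192) was among the higher ones, as were Cp and Lcn2 above. Serpina3g was the other (log2 fold change 1.52, SE 0.48, adjusted p = 0.0451). Ifi205 lost the call without DOX mouse 22 (adjusted p up to 0.052). Ifi207, Gbp6 and Osmr lost the call without DOX mouse 22 or 24 or vehicle mouse 2 (adjusted p up to 0.0845). Serpina3n lost the call without DOX mouse 22 or 24 or vehicle mouse 3 (adjusted p up to 0.0795). Psme1 lost the call without DOX mouse 22 or 24 or vehicle mouse 2 or 3 (adjusted p up to 0.0932). Psme2, Ifit2, Cxcl16 and Serpina3g were called in only 2 to 5 of the 12 such fits (adjusted p up to 0.214).

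Hemoglobin transcripts were nearly absent after DOX. Hemoglobin genes summed to 48.5, 159 and 166 CPM in vehicle hearts and to 0.216, 0.0364 and 0.0864 CPM in DOX hearts. Hba-a2 had 1578 counts over the vehicle libraries and 0 over the DOX libraries, which is at least 197-fold lower when 3 counts are allowed per DOX library. Hbb-bt had 713 and 0 counts, at least 89.1-fold lower. Hbb-bs measured 25, 78.7 and 85.3 CPM in vehicle hearts and 0.0719, 0 and 0 CPM after DOX, and Hba-a1 11.5, 43.5 and 43.2 CPM against 0.144, 0.0364 and 0.0576 CPM. Both lay far below vehicle in every DOX heart (adjusted p = 0.0138 and 0.0145). Alas2, which starts heme synthesis in red cell precursors, measured 2.32, 4.59 and 6.15 CPM against 0.18, 0.109 and 0.0864 CPM (log2 fold change -5.10, SE 1.36, adjusted p = 0.0276). These limits cover counting error only, and reads shared between the near-identical α and β globin copies may have been divided among them. Gata1 was at 0 in all wild-type libraries. Of 9 erythroid markers tested 5 were lower and 0 higher, and without 1 wild-type library between 0 and 6 were lower. A scarce gene that is near 0 after DOX passes the filter through hearts where it is higher. These counts are therefore descriptions. The summed level of all 15 erythroid markers in the files did not separate the groups, at 132, 239 and 252 CPM in vehicle hearts and 138, 59.3 and 152 CPM after DOX. Hbb-bs and Hba-a1 lost the call without DOX mouse 22 or 24 (adjusted p up to 0.0647). Hba-a2 lost the call without DOX mouse 22 or 24 or vehicle mouse 2 (adjusted p up to 0.0692). Hbb-bt and Alas2 lost the call without DOX mouse 22 or 24 or vehicle mouse 2 or 3 (adjusted p up to 0.104).

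**Figure D5:**
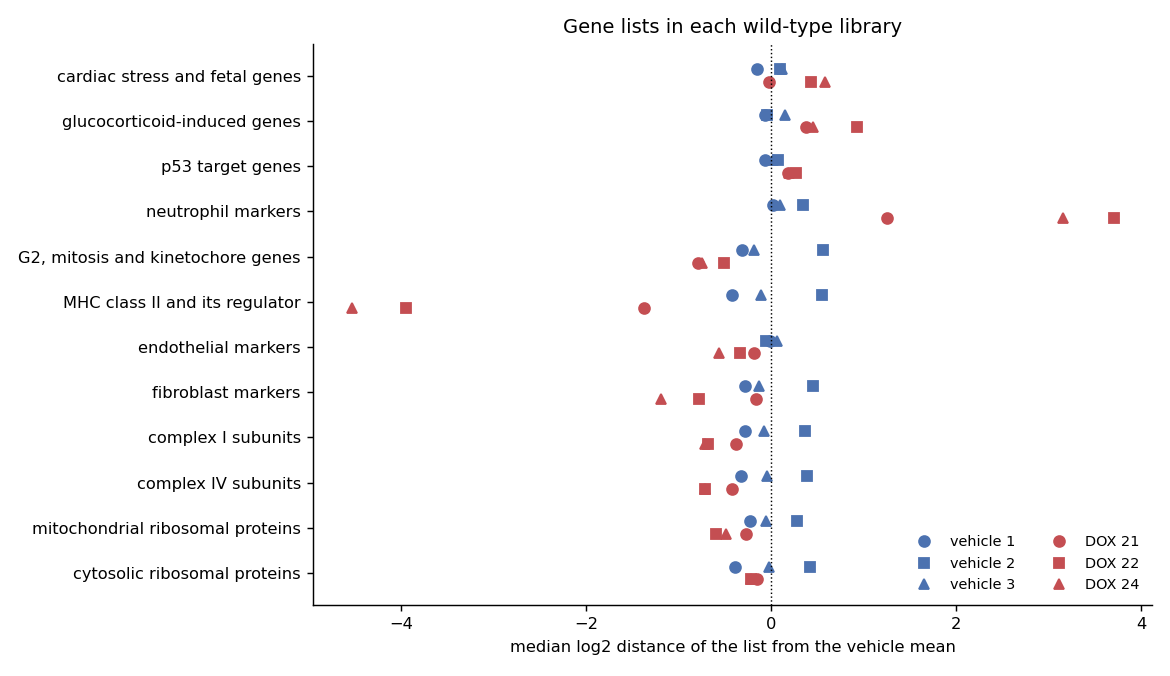
Median log2 distance of 12 gene lists from their vehicle mean (x axis) in each wild-type library, vehicle in blue and DOX in red. DOX mouse 21 (red circle) lies at -1.38 for MHC class II and at 1.25 for neutrophil markers, nearer to vehicle than mice 22 and 24 (-3.95 and -4.54, and 3.71 and 3.16), and vehicle mouse 2 (blue square) lies apart for the ribosomal and respiratory lists.

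Remaining cell types moved in few of their markers. Of 17 tested adipocyte markers 1 was higher and 1 lower, 5.88% each way beside 9.39% and 9.2% of all genes (median -0.40). Plin4, a lipid droplet protein, measured 237, 150 and 261 CPM in vehicle hearts and 313, 542 and 519 CPM after DOX (log2 fold change 1.09, SE 0.23, adjusted p = 0.0165), and Thrsp, a lipogenic nuclear protein, 24.4, 26 and 24.8 CPM against 16.1, 16.1 and 10.9 CPM (log2 fold change -0.81, SE 0.15, adjusted p = 0.0134). Clu, clusterin, was the 1 of 17 atrial markers called. That is 5.88% called higher, beside 9.39% of all genes. Clu measured 614, 643 and 543 CPM against 643, 1547 and 973 CPM (log2 fold change 0.81, SE 0.25, adjusted p = 0.0414). The summed level of the atrial markers was 1316, 1271 and 1151 CPM in vehicle hearts and 1435, 2723 and 2133 CPM after DOX. Stmn2, a neuronal tubulin regulator, was the 1 of 16 Schwann cell and neuronal markers called. That is 6.25% called lower, beside 9.2% of all genes. Stmn2 measured 7.61, 8.01 and 7.46 CPM against 5.43, 3.2 and 2.16 CPM (log2 fold change -1.11, SE 0.25, adjusted p = 0.0175). Of 16 epicardial and 6 platelet markers tested, 0 were called by edgeR's quasi-likelihood test, and 0 and 0 had an unadjusted p below 0.05. DESeq2 called 0 and 0, and limma-voom 0 and 1. The part of these cell types in the changes above was not tested. Thrsp was called in all 12 fits that left out 1 library. Plin4 and Stmn2 lost the call without DOX mouse 22 or 24 or vehicle mouse 2 (adjusted p up to 0.0726). Clu was called in only 3 of the 12 such fits (adjusted p up to 0.172).

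The DOX effect differed between wild-type hearts and hearts labelled KO for 31 of 14757 genes (0.21%). Hif3a was among them: after DOX it rose by 2.23 (log2) in wild-type hearts, while the value in hearts labelled KO was -0.88, and the difference was 3.11 (SE 0.49, adjusted p = 0.0288). Leaving out 1 library gave between 0 such genes (without mouse 20 of the DOX group labelled KO) and 515 (without wild-type DOX mouse 21).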

How the data were processed

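RNA from hearts was sequenced from a TruSeq stranded mRNA library kit, per the labels' protocols. The authors deposited raw counts of reads per gene symbol for each library. Tools named in the submitters' processing notes were fastp 0.20.0, STAR 2.7.0f and featureCounts of Subread 1.6.4. For the count step, genome build, annotation, strand setting and multiply mapped reads were not given in the sources used here. Counts were tested with edgeR 4.0.16 (R 4.3.3, limma 3.58.1): filterByExpr by group, TMM scaling, 1 mean per group over all 12 libraries and the quasi-likelihood F test, with p-values adjusted over 14757 genes by the Benjamini-Hochberg procedure. Every fold change, SE and adjusted p comes from that fit unless another is named. A test on simulated data was run first. CPM are counts divided by the TMM-scaled library size, on edgeR's usual scale, and log2 distances used a prior count of 2. Alternatives were DESeq2 1.42.0, limma-voom, other scalings and filters, the title suffix, a length and GC offset (mgcv 1.9.3, with GENCODE M21, which held 98.3% of symbols), wild-type libraries only and leaving out each library. Genes were named by a rule: the 15 highest and 15 lowest called genes with groups apart, up to 4 called genes a list by p, and a set of marker genes. Others (Nqo1, Cbr4, Rpl3, Prc1, H2-Ob, Adrb1, Adcy4, Esrra, Sirt3, Npr1, Prdx5, Gstt1, Sod3, Prdx2, Txnrd2, Nr1d1, Dbp, Egr1 and Ier2) were chosen after their values were seen. The members and lists were chosen with earlier results of these data known. Libraries labelled KO entered the filter, the scaling, the estimate of the spread and the test of the difference; with wild-type libraries only, 14207 genes were tested. Promoters are from RefSeq (GRCm38.p6). Some genes that the rule names are not reported here.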

Additional observations from a re-analysis of the deposited data

Results flagged for a closer look

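For 8 of the named genes the DOX effect differed between wild-type hearts and hearts labelled KO, by the test of the difference itself (edgeR quasi-likelihood, adjusted over all genes, 3 libraries a group). The difference on the log2 scale, wild type less KO, was 2.04 for Gsta3 (adjusted p = 0.0152) and, each with an adjusted p of 0.0288, 5.98 for Cxcr2, 4.84 for S100a8, 4.35 for S100a9, 3.11 for Hif3a, 1.84 for Ifi205, -0.93 for Heyl and -2.21 for Aqp7. In hearts labelled KO the DOX values themselves were -0.75 for Gsta3, -0.83 for Cxcr2, -0.81 for S100a8, -0.93 for S100a9, -0.88 for Hif3a, -0.78 for Ifi205, 0.28 for Heyl and 0.64 for Aqp7, each opposite in sign to wild type. The vehicle levels of the genotypes did not overlap for any of the 8 genes. S100a8 measured 2.32, 1.51 and 1.37 CPM in vehicle hearts labelled KO and 0.591, 1.35 and 1 CPM after DOX there, against 0.445, 0.311 and 0.595 CPM in wild-type vehicle hearts. In vehicle hearts Gsta3 measured 13.2 to 14.8 CPM in those labelled KO against 4.14 to 6.15 CPM in wild type, Cxcr2 0.377 to 0.532 CPM against 0 to 0.0445 CPM, S100a9 2.52 to 4.26 CPM against 0.668 to 1.31 CPM, Hif3a 4.05 to 6.01 CPM against 0.933 to 1.83 CPM, and Ifi205 18.8 to 25.5 CPM against 8.01 to 12.7 CPM. For Aqp7 (9.17 to 10.3 CPM against 21 to 35.9 CPM) and Heyl (19 to 21.2 CPM against 23 to 29.1 CPM) the hearts labelled KO were the lower ones. The part of these starting levels in the differences was not tested.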

How the results depend on the processing

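The count of genes called for DOX in wild-type hearts (2743) fell to 1595 with the title suffix as a covariate, to 1506 with the length and GC offset and to 20 with wild-type libraries only, and rose to 5575 with limma-voom. Leaving out 1 library gave between 183 and 4188. DESeq2 size factors, library totals alone, a filter of 1 CPM, no filter and DESeq2 kept it within 1.5 times. The 31 genes that differed from hearts labelled KO became 366 with DESeq2, 2048 with limma-voom, 1093 with no filter, 51 without TMM and 49 with the length and GC offset, and between 0 and 515 without 1 library. Of the 235 named genes, 63 lost the call with the length and GC offset, 58 with the suffix, 172 without DOX mouse 22, 170 without DOX mouse 24, 133 without vehicle mouse 2 and 105 without vehicle mouse 3. Signs turned in genes that were not called: with the length and GC offset Top2b was -0.11, Abcb8 0.02, Cox6a1 0.19 and Slc25a5 0.16; with the suffix Slc25a5 was 0.01; without DOX mouse 22 Pdk4 was -0.90 and Slc25a5 0.05; and without vehicle mouse 2 Slc25a4 was 0.02 and Slc25a5 0.06. Leaving out 1 wild-type or other library gave -0.90 to 1.57 for Pdk4, -0.27 to 0.02 for Slc25a4 and -0.14 to 0.06 for Slc25a5. The causes were not tested. No paired analysis was possible because the groups compared share no replicate numbers. With 3 libraries a group, genes with few counts carry wide errors.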
